A study of Bos taurus with 52 samples.

Results

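Matrix metalloproteinases (MMPs) are zinc enzymes that cut the proteins of the extracellular matrix, ADAMTS1 is a related secreted protease, and tissue inhibitors of metalloproteinases (TIMPs) are small secreted proteins that block them. Here 9 genes of this system were followed in cattle, chosen by name: the proteases MMP2, MMP9, MMP11, MMP14, MMP19 and ADAMTS1 and the inhibitors TIMP1, TIMP2 and TIMP3. They are 9 of the 31651 named genes in the count table. Of the 9, 8 had enough reads to be tested in endometrium and 7 in the conceptus. MMP9 was not tested in either tissue and MMP19 was not tested in the conceptus, and their reads are given library by library or by range.

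The study sequenced mRNA from heifers of 3 fertility classes set by its submitters: high fertility (HF), low fertility (SF, subfertile) and infertility (IF). Endometrium, the lining of the uterus, came from 25 heifers in 5 groups of 5: non-pregnant HF, SF and IF (NP-HF, NP-SF, NP-IF) and pregnant HF and SF at day 17 (P-HF, P-SF). The sources used here give no day for the non-pregnant tissue. Conceptuses, the elongating embryo with its membranes, came from day 17 pregnancies as 10 from SF recipients (C-SF), 10 long ones from HF recipients (C-HF-long) and 7 short ones from HF recipients (C-HF-short). These 27 conceptuses came from 19 recipients, 8 of which gave 2, and 8 recipients also gave endometrium. Sample titles carry a length for 20 conceptuses, for 9 of C-SF (from 1.5 cm up to a length within the C-HF-long range), 5 of C-HF-long (9 to 17 cm) and 6 of C-HF-short (1.2 to 6.9 cm). For 3 of the 20 the title gives the number without a unit.

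Endometrial matrix is rebuilt while a ruminant conceptus elongates and attaches, and metalloproteinases, their inhibitors and the collagens they act on take part in that rebuilding. MMP2 and MMP9 are the gelatinases, which cut denatured collagen and basement membrane collagen. MMP14 sits in the cell membrane and activates the MMP2 precursor there, a step for which TIMP2 can serve as the bridge, while an excess of TIMP2 blocks the enzymes.

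Libraries held 17077635 to 27292222 counted reads in endometrium and 20549492 to 46966995 in conceptuses. Levels are given as normalised read counts on the counts-per-million scale (CPM) within a tissue. A change was called where the Benjamini-Hochberg adjusted p of edgeR's quasi-likelihood test, taken over all genes tested, was under 0.05. The tissues carried the markers of their labels: summed trophectoderm markers ran from 8867 to 32010 CPM in conceptuses and from 162 to 301.7 CPM in endometrium, and summed stromal markers from 3.473 to 94.18 CPM and from 3806 to 8019 CPM. The trophectoderm list includes the keratins KRT8 and KRT18, which also serve here as epithelial markers, and each tissue was scaled on its own. In 22 of the 27 conceptus samples the description names another conceptus than the title. Titles were used, and every conceptus result below rests on that choice. Because the libraries are of whole tissue, fewer cells of a type and less RNA per cell cannot be told apart.

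In HF heifers, pregnancy went with lower endometrial MMP2 and MMP14. Of the 8 genes tested between P-HF and NP-HF, these 2 fell, 0 rose and 6 did not pass the test. Their share of 2 in 8 stands beside 20.8 percent of all 19606 tested genes called in this comparison, so that it is near the background. The median log2 fold change of the 8 was -0.29, beside -0.01 over all genes.

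MMP2 had 170.6, 314.5, 154.9, 223.5 and 186.6 CPM in the 5 NP-HF heifers and 90.63, 113.9, 129.7, 46.85 and 116.3 CPM in the 5 P-HF heifers. The highest pregnant animal lay below the lowest non-pregnant one, so the groups did not overlap, which was also so for 12.1 percent of all genes tested. The mean was 99.5 ± 32.6 CPM in P-HF and 210.0 ± 63.7 CPM in NP-HF (SD, n = 5 each). The log2 fold change was -1.08 ± 0.23 (SE, edgeR adjusted p = 0.0015). P-HF replicate 4 was the lowest library for MMP2 and for MMP14. Without it the log2 fold change of MMP2 was -0.90 (edgeR adjusted p = 0.0030).

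MMP14 had 214.7, 227.4, 114.2, 182.4 and 139.2 CPM in NP-HF and 98.14, 128.7, 120.1, 65.35 and 128.7 CPM in P-HF. The groups overlapped: NP-HF replicate 3 lay below 3 of the 5 pregnant animals. The log2 fold change was -0.70 ± 0.20 (edgeR adjusted p = 0.015). The call was lost when NP-HF replicate 2, the highest library, was left out (-0.59, edgeR adjusted p = 0.056). MMP14 overlaps RBM23 in the genome annotation, and the counting's use of strand is not known here, so reads of the overlap could be credited to either gene.

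TIMP2 was the 1 tested member with a positive difference in P-HF. It had 497.5, 698.8, 463.5, 600.5 and 982.5 CPM in NP-HF and 752.0, 841.0, 1412, 1208 and 1009 CPM in P-HF. P-HF was higher in 92 percent of the pairs of a pregnant with a non-pregnant library. The exceptions came from NP-HF replicate 5, which lay above 2 of the pregnant animals. The log2 difference of 0.69 ± 0.27 did not pass the test (edgeR adjusted p = 0.072). It passed when NP-HF replicate 5 was left out (0.89, edgeR adjusted p = 0.024), when P-HF replicate 1 was left out (0.79, edgeR adjusted p = 0.048) and with DESeq2 (0.68, adjusted p = 0.044). TIMP2 overlaps CEP295NL in the annotation, and read assignment carries the same limit as for MMP14.

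**Figure D1:**
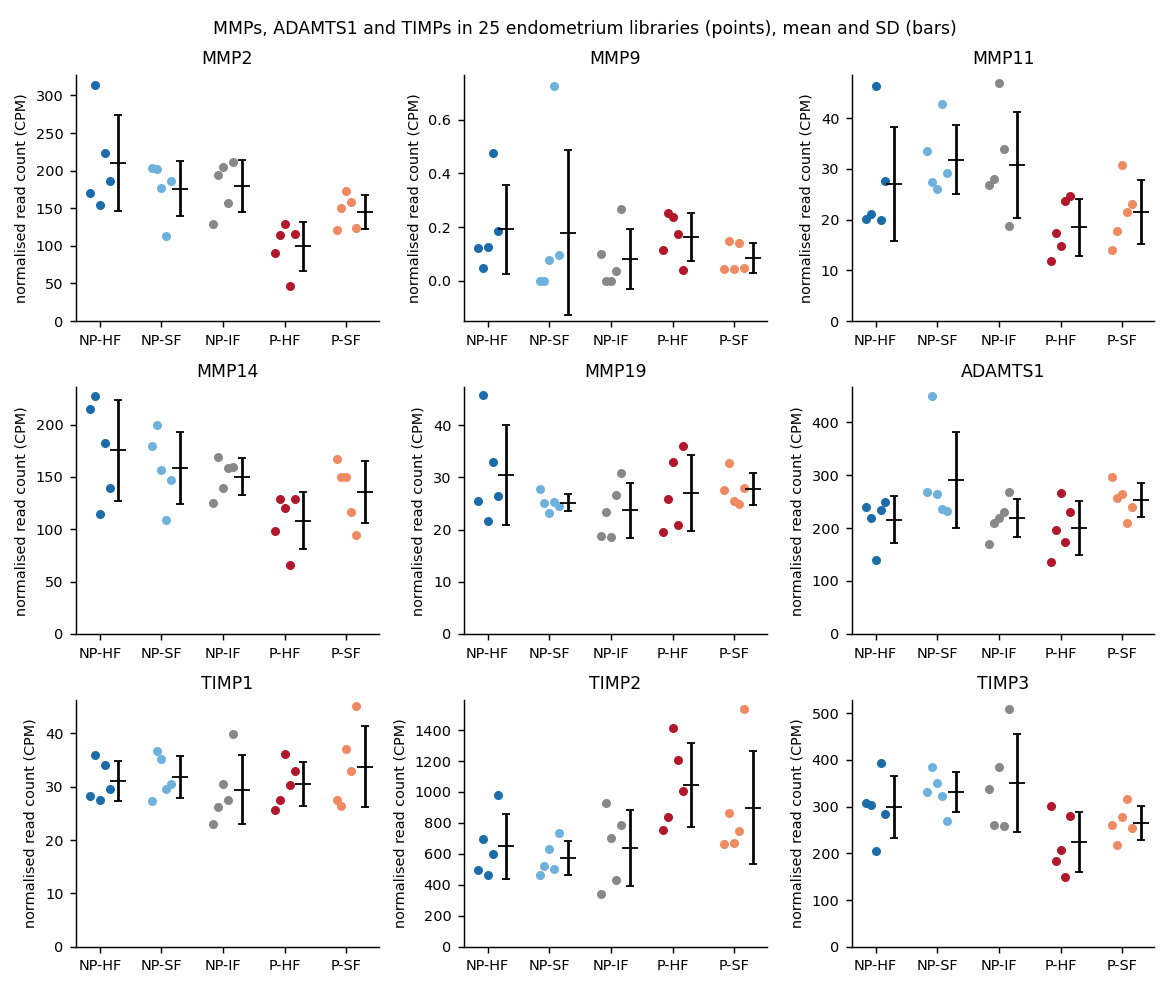
Normalised read counts (CPM, vertical axis) of the 9 genes in the 25 endometrium libraries, by group; points are animals, bars are mean and SD (n = 5). The 5 P-HF points of MMP2 (46.85 to 129.7) all lie below the 5 NP-HF points (154.9 to 314.5), and TIMP2 is at 752.0 to 1412 in P-HF against 463.5 to 982.5 in NP-HF; the axis differs between genes, so levels are not to be compared between panels.

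The other inhibitors gave smaller differences that did not pass. TIMP3, the inhibitor that is held in the matrix and also blocks ADAMTS proteases, had 205.8 to 393.5 CPM in NP-HF and 148.3 to 301.4 CPM in P-HF (log2 difference -0.42 ± 0.19, edgeR adjusted p = 0.13). TIMP3 overlaps SYN3 in the annotation, and read assignment carries the same limit as for MMP14. TIMP1, whose best known partner is MMP9, was close to level across all 5 groups, with means of 31.1 CPM in NP-HF, 31.8 in NP-SF, 29.4 in NP-IF, 30.5 in P-HF and 33.8 in P-SF. Its log2 difference between P-HF and NP-HF was -0.03 ± 0.15 (edgeR adjusted p = 0.93). TIMP1 overlaps SYN1 in the annotation.

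The remaining proteases did not pass either. MMP11, a secreted enzyme also called stromelysin 3, had 19.85 to 46.41 CPM in NP-HF and 11.9 to 24.59 CPM in P-HF (log2 difference -0.55 ± 0.27, edgeR adjusted p = 0.15). The highest NP-HF value, in replicate 3, was 46.41 CPM, and without that library the difference was -0.26. MMP19 had 21.55 to 45.88 CPM in NP-HF and 19.51 to 36.04 CPM in P-HF (log2 difference -0.17 ± 0.18, edgeR adjusted p = 0.57). ADAMTS1, a protease that cuts the proteoglycans versican and aggrecan, had 139.5 to 248.3 CPM in NP-HF and 135.6 to 266.2 CPM in P-HF (log2 difference -0.11 ± 0.19, edgeR adjusted p = 0.73).

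MMP9 was barely read in endometrium. The 5 NP-HF libraries held 3, 1, 3, 10 and 4 reads and the 5 P-HF libraries 2, 4, 6, 4 and 1. In NP-SF the reads were 0, 0, 2, 17 and 2, in NP-IF 2, 0, 0, 1 and 6, and in P-SF 1, 3, 1, 3 and 1. No group stands apart at this depth, and NP-SF replicate 4 held the most reads.

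Of 17 other MMPs 15 were in the table, 8 were tested and 2 fell, a share near the 20.8 percent of all genes: MMP7, the epithelial matrilysin (-3.08 ± 0.67, edgeR adjusted p = 0.0021), and MMP16, a membrane enzyme like MMP14 (-1.03 ± 0.28, edgeR adjusted p = 0.011). MMP7 had a mean of 17.7 CPM in NP-HF, from 3.971 to 65.33, and 2.08 CPM in P-HF, from 1.128 to 3.276. Without NP-HF replicate 2 its log2 fold change was -1.47 (edgeR adjusted p = 0.025). In the fit of only these groups MMP16 was at -1.04 with an edgeR adjusted p = 0.061, and so no longer called.

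Of 17 tested ADAMTS genes other than ADAMTS1, 9 fell and 0 rose, with a median log2 fold change of -0.86. The 4 with the smallest p were ADAMTS2, the procollagen N-proteinase, at -1.59 ± 0.27 (27.9 to 9.26 CPM, edgeR adjusted p = 0.00019), ADAMTS15 at -1.15 ± 0.22, ADAMTS19 at -1.12 ± 0.23 and ADAMTS12 at -2.23 ± 0.47. The called ADAMTS genes kept to 1 direction, while ADAMTS1 itself was at -0.11. Among 7 other inhibitors, activators and clearance receptors 1 fell, a share below that of all genes. It was LRP1, the endocytic receptor that clears proteases and their complexes with inhibitors (-0.53 ± 0.17, edgeR adjusted p = 0.027, called in 10 of 16 alternatives). TIMP4, the remaining inhibitor of the family, was at -0.07 ± 0.26, RECK, a membrane-bound inhibitor of MMPs, at -0.37 ± 0.17, and BSG, which induces MMPs, at -0.04 ± 0.10.

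Of 11 matrix proteins that these enzymes cut, 9 fell and 0 rose (median -1.16). The collagen chain COL3A1 was at -1.88 ± 0.24 with means of 6954 CPM in NP-HF and 1887 CPM in P-HF (edgeR adjusted p = 7.6e-06). The fibrillar chains COL1A2 (-1.55 ± 0.23) and COL1A1 (-1.63 ± 0.24) and the proteoglycan versican, VCAN (-1.16 ± 0.24), fell with it. FN1 and COL4A1 were at -0.27 ± 0.17 and -0.47 ± 0.19 and did not pass. These lists were chosen with earlier results of these data known, and their counts are a description beside the 20.8 percent of all genes.

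Cell type markers moved in the same comparison. Of 7 stromal markers 4 fell (PDGFRB, THY1, COL6A1 and COL6A2) and 0 rose, and their sum ran from 3806 to 4971 CPM in P-HF and from 4528 to 8019 CPM in NP-HF. P-HF replicate 4, the lowest library for MMP2 and MMP14, also had the lowest stromal sum. DCN and LUM, which define fibroblasts, were at -0.27 ± 0.14 and -0.19 ± 0.14, and PDGFRA at 0.41 ± 0.20, none of them called. Of 6 epithelial markers 2 rose (CDH1 and CLDN4), with sums of 1391 to 1647 CPM in P-HF and 926.7 to 1208 CPM in NP-HF. Of 7 leukocyte markers 3 rose (CD68, CSF1R and AIF1), with sums of 126.3 to 187.2 CPM in P-HF and 90.41 to 139.3 CPM in NP-HF. Of 6 endothelial markers 2 fell (PECAM1 and TIE1) and of 6 smooth muscle markers 0 passed. Of 5 neutrophil markers 1 rose, S100A12 (2.75 ± 0.45), and their sum was 10.38 to 49.5 CPM in P-HF and 3.392 to 10.9 CPM in NP-HF, highest in P-HF replicate 4. CSF3R and CXCR2, which define neutrophils, were at -0.25 and 0.34 and not called, at means under 1 CPM, and S100A8 was at 0 in 1 NP-HF library. No marker of the other 5 lists was at 0 in any library of either group. The part of all 6 lists in the changes of MMP2, MMP14 and the matrix genes was not tested.

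In SF heifers, pregnancy went with no called change in any of the 8 genes. Between P-SF and NP-SF 4.07 percent of all genes were called, and 0 members by edgeR, DESeq2 or limma-voom. At an unadjusted p under 0.05 edgeR gave 3319 genes. MMP2 had 203.2, 201.8, 177.2, 112.7 and 186.1 CPM in NP-SF and 120.7, 150.4, 173.0, 158.4 and 123.2 CPM in P-SF. Each P-SF library lay below 4 of the 5 NP-SF libraries and above NP-SF replicate 4. The log2 difference was -0.28 ± 0.22 (edgeR adjusted p = 0.58).

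MMP14 in SF heifers overlapped widely, with 108.8 to 199.5 CPM in NP-SF and 94.32 to 166.7 CPM in P-SF (-0.23 ± 0.20, edgeR adjusted p = 0.63). TIMP2 had 464.9, 524.7, 630.1, 502.1 and 737.0 CPM in NP-SF and 665.0, 866.6, 671.6, 750.0 and 1533 CPM in P-SF. P-SF was higher in 92 percent of library pairs, as P-HF was over NP-HF, with a log2 difference of 0.65 ± 0.27 (edgeR adjusted p = 0.20). P-SF replicate 5 stood far above the other 4 animals, and without it the difference was 0.37. MMP11 was at -0.57 ± 0.26 (edgeR adjusted p = 0.27) and TIMP3 at -0.32 ± 0.19 (edgeR adjusted p = 0.43). MMP19, ADAMTS1 and TIMP1 were at 0.14, -0.20 and 0.09.

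Among the wider lists in SF heifers, 0 of 8 other MMPs passed and 1 of 17 other ADAMTS genes fell, ADAMTS15 at -0.78 ± 0.21 (9.02 to 5.26 CPM, edgeR adjusted p = 0.038). That call held in 5 of 16 alternatives. Of the 11 matrix proteins 0 passed, with a median of -0.32, and of the 7 stromal markers 0 passed. The stromal sums were 5289 to 6363 CPM in P-SF and 4754 to 7308 CPM in NP-SF. Leukocyte sums did not overlap, at 110.4 to 185.2 CPM in P-SF and 77.73 to 96.73 CPM in NP-SF, with 1 of 7 markers called, AIF1. Neutrophil sums did not overlap either, at 10.26 to 29.46 CPM in P-SF and 3.855 to 7.88 CPM in NP-SF, with 1 of 5 markers called, S100A12. Of all single genes tested, 5.56 percent did not overlap between P-SF and NP-SF. Epithelial sums overlapped, at 1176 to 1461 CPM in P-SF and 852.1 to 1328 CPM in NP-SF, with 1 of 6 markers called. The part of leukocytes, neutrophils and epithelium in the TIMP2 values was not tested.

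Whether pregnancy acted differently in the 2 fertility classes was tested as an interaction, the change in SF minus the change in HF. It called 0 of the 8 members and 0.00510 percent of all genes, 1 gene in all, with 1336 genes at an unadjusted p under 0.05, 3 called by DESeq2 and 0 by limma-voom. MMP2 had the highest interaction of the members, 0.80 ± 0.32 (unadjusted p = 0.0192, edgeR adjusted p = 0.65). MMP14 was at 0.47 ± 0.28 (edgeR adjusted p = 0.80). TIMP2 was at -0.04 ± 0.38, the difference between 0.65 in SF and 0.69 in HF heifers. A p that misses the threshold does not show that the classes respond alike. Among the 11 matrix proteins 11 interactions were positive and 0 were called (median 0.74, beside 0.008 over all genes). The change in HF heifers, where 9 of them fell, is part of each interaction, so the signs are not separate evidence.

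In the pregnant endometrium P-SF stood above P-HF for MMP2, in 92 percent of library pairs, with means of 145.1 ± 22.7 CPM and 99.5 ± 32.6 CPM (SD, n = 5 each). The log2 difference of 0.54 ± 0.23 did not pass (unadjusted p = 0.0235, edgeR adjusted p = 0.43). 0 members and 0.00 percent of all genes were called by edgeR, with 1984 genes at an unadjusted p under 0.05, 95 called by DESeq2 and 0 by limma-voom. MMP14 was at 0.32 ± 0.20, ADAMTS1 at 0.34 ± 0.19, TIMP3 at 0.24 ± 0.19, MMP11 at 0.22 ± 0.27, TIMP1 at 0.15 ± 0.15, MMP19 at 0.03 ± 0.18 and TIMP2 at -0.22 ± 0.27. Stromal sums did not overlap between these groups, at 5289 to 6363 CPM in P-SF and 3806 to 4971 CPM in P-HF, and their part was not tested. Of all single genes tested, 1.56 percent did not overlap here. Leaving out P-HF replicate 1 and P-SF replicate 5 together raised the count of called genes to 634, with 0 members among them.

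**Figure D2:**
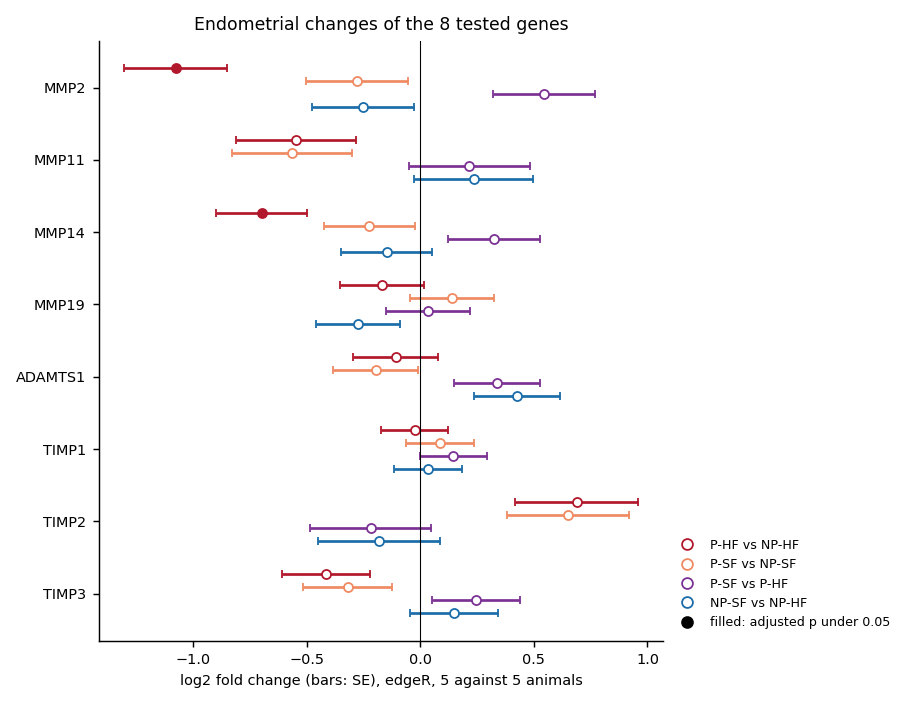
Log2 fold change (horizontal axis, bars are SE) of the 8 tested genes in 4 endometrial comparisons of 5 against 5 animals; a filled point has an edgeR adjusted p under 0.05. The 2 filled points are MMP2 (-1.08) and MMP14 (-0.70) in P-HF against NP-HF, and TIMP2 lies to the right in both pregnancy comparisons (0.69 and 0.65) without being filled.

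Without pregnancy the 3 fertility classes gave 0 called members and 0.00 percent of all genes in each of 3 comparisons by edgeR, with 709, 1070 and 784 genes at an unadjusted p under 0.05 for NP-SF against NP-HF, NP-IF against NP-HF and NP-IF against NP-SF. DESeq2 called 4, 2 and 10 genes there and limma-voom 0, with 0 members among them. ADAMTS1 had the lowest unadjusted p among the members in 2 of them. It had 239.5, 218.2, 139.5, 234.9 and 248.3 CPM in NP-HF, 268.8, 450.0, 264.2, 236.4 and 232.1 CPM in NP-SF, and 169.8 to 267.2 CPM in NP-IF. NP-SF replicate 2 and NP-HF replicate 3 lay far from the rest of their groups, and the groups overlapped. The log2 difference was 0.43 ± 0.19 for NP-SF over NP-HF (unadjusted p = 0.0334, edgeR adjusted p = 1) and -0.41 ± 0.19 for NP-IF over NP-SF (unadjusted p = 0.0414, edgeR adjusted p = 1). Without NP-SF replicate 2 the first was 0.21 and the second -0.19. MMP19 was at -0.36 ± 0.18 in NP-IF against NP-HF (edgeR adjusted p = 0.93). MMP2 had means of 210.0, 176.2 and 179.4 CPM in NP-HF, NP-SF and NP-IF, closer together than the animals within any of these groups.

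Proteases were also set against their inhibitor within each library, as the log2 ratio of (CPM + 1). Since reads of different genes depend on transcript length, a ratio is compared between groups only. MMP2 to TIMP2 had a mean of -1.62 ± 0.46 in NP-HF, from -2.39 to -1.15, and -3.42 ± 0.72 in P-HF, from -4.66 to -2.87. The groups did not overlap, and the difference of -1.81 had the smallest p that an exact two-sided permutation test of 5 against 5 can give (p = 0.0079). Adjusted over the 12 ratio tests it did not pass (p = 0.0952, exact permutation test). With 5 against 5 animals, a lone ratio at that smallest p cannot pass this adjustment, however large its difference. In SF heifers the ratio was -1.70 ± 0.41 in NP-SF and -2.56 ± 0.64 in P-SF, a difference of -0.85 (p = 0.0238, adjusted p = 0.0952, exact permutation test).

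MMP14 to TIMP2 gave differences of the same signs. The difference was -1.39 between P-HF and NP-HF (p = 0.0159, adjusted p = 0.0952, exact permutation test) and -0.82 between P-SF and NP-SF (p = 0.0794, adjusted p = 0.19, exact permutation test). Between P-SF and P-HF the differences were 0.87 for MMP2 to TIMP2 and 0.59 for MMP14 to TIMP2, with adjusted p of 0.19 and 0.449 (exact permutation test). ADAMTS1 to TIMP3 differed by 0.32, 0.16 and 0.08 in these 3 comparisons, and MMP9 to TIMP1 by 0.00, -0.15 and -0.22, where MMP9 is at a few reads. In all, 0 of 12 ratio tests passed. The smallest p available limits that count, so it does not show that the ratios are alike. Without P-SF replicate 5, the animal with the highest TIMP2, 4 of 12 passed, all with an adjusted p = 0.048: both ratios to TIMP2 in P-HF against NP-HF, whose differences were the same as before, and in P-SF against P-HF, at 1.13 and 0.93. In P-HF against NP-HF the pass came from changed p-values of other tests in the adjustment. Without P-HF replicate 4 the differences between P-SF and P-HF were smaller, at 0.56 and 0.36.

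**Figure D3:**
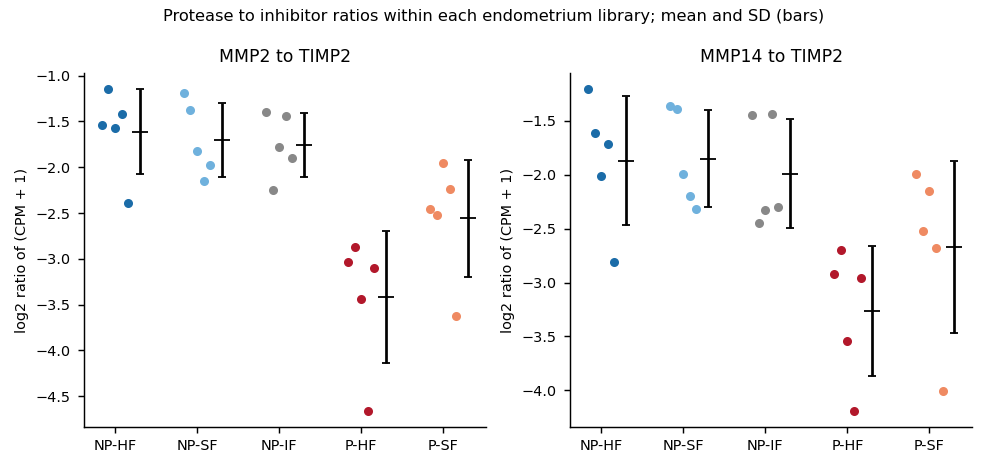
Log2 ratio of (CPM + 1) of MMP2 (left) and MMP14 (right) to TIMP2 (vertical axis) in each endometrium library by group; points are animals, bars are mean and SD (n = 5). For MMP2 the 5 P-HF animals lie between -4.66 and -2.87, below the 5 NP-HF animals (-2.39 to -1.15), and P-SF replicate 5 (-3.63) lies below the other 4 P-SF animals.

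Across the 25 endometrium libraries the levels of MMP2 and MMP14 ran together (Pearson r = 0.84 of log2(CPM + 1)). These and the following correlations are descriptions over libraries that share their scaling and depth and include the pregnancy groups. MMP2 and MMP14 had r = 0.77 and 0.76 with the stromal marker sum and -0.63 and -0.65 with the epithelial sum. TIMP2 did not follow the stromal sum (r = -0.10) and had r = 0.67 with the leukocyte and 0.65 with the epithelial sum. TIMP3 had r = 0.74 with the smooth muscle sum and -0.71 with the epithelial sum.

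The genes most alike in pattern were named by a fixed rule, the 3 with the highest r over the 25 libraries. For MMP2 these were SSC5D (0.95), SERPINF1 (0.93) and COL1A2 (0.925), a fibrillar collagen chain. For MMP14 they were ANGPTL2, LRP1 and AFF3 (each 0.90). TIMP2 was most like CLU (0.89), the secreted chaperone clusterin, then STK17A and DEGS1 (each 0.85). TIMP3 was most like FLT1 (0.90), a receptor for vascular endothelial growth factor, then PTRF and ZBTB46 (each 0.88). The closest genes of the others were ABHD14B for MMP11 (0.88), CAPN6 for MMP19 (0.80), EMILIN1 for ADAMTS1 (0.82) and CTSK for TIMP1 (0.77), so that these 4 had looser companions than MMP2.

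The conceptus read 7 of these genes far less than the endometrium, the exceptions being ADAMTS1 and MMP9, which is near 0 in both tissues. As CPM of all counted reads, MMP2 had a median of 1.15 over 27 conceptuses and 113.7 over the 10 pregnant endometria, which is 1.01 percent. The same percent was 2.39 for TIMP2, 1.96 for TIMP3, 6.28 for MMP14, 8.66 for MMP11, 25.8 for TIMP1 and 0.211 for MMP19. For ADAMTS1 it was 69, with medians of 148.1 and 214.7, and for MMP9 it was 54.6, with medians of 0.067 and 0.123. The RNA of the 2 tissues was prepared with different reagents, so that tissue and reagent cannot be told apart and no test was made. These medians do not pair the 8 recipients that gave both tissues.

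Between C-SF and C-HF-long, MMP14 came closest to a call. It ran from 5.473 to 16.84 CPM in C-SF with a median of 9.96, and from 4.032 to 10.19 CPM in C-HF-long with a median of 6.57. C-SF was higher in 81 percent of library pairs, and the groups overlapped. The log2 difference was 0.66 ± 0.21 (unadjusted p = 0.00479, edgeR adjusted p = 0.052). Members called were 0, beside 8.90 percent of 16330 genes. DESeq2 called MMP14 (0.66, adjusted p = 0.026), as did the edgeR fit without the sample sheet term (0.65, adjusted p = 0.045). The sample sheet is a split read from the form of the descriptions: 3 of 10 C-SF, 0 of 10 C-HF-long and 4 of 7 C-HF-short libraries are on the second. On the first sheet alone the difference was 0.64 (edgeR adjusted p = 0.078), and the second holds no C-HF-long library. With 1 summed library per recipient it was 0.52 (edgeR adjusted p = 0.15), and with libraries mapped by their descriptions 0.26 (edgeR adjusted p = 0.76). That mapping called 0 genes in all in this comparison.

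The other members were further from a call. TIMP3 was lower in C-SF in median, at 3.396 CPM (0.527 to 9.37) against 5.34 CPM (3.36 to 15.9), with a log2 difference of -0.75 ± 0.53 (edgeR adjusted p = 0.38). MMP2 was at 0.77 ± 0.71 (edgeR adjusted p = 0.51), and its C-SF values split: replicates 2, 5 and 6 had 11.96, 11.41 and 9.37 CPM and the other 7 lay between 0.469 and 3.85. Replicates 5 and 6 shared a uterus. ADAMTS1 (0.27 ± 0.24, and -0.03 with libraries mapped by descriptions), MMP11 (0.32 ± 0.29), TIMP1 (-0.10 ± 0.36) and TIMP2 (-0.32 ± 0.51) did not pass.

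Against C-HF-short the order was the same for MMP14, which had 3.706 to 7.718 CPM there with a median of 6.21. C-SF was higher in 90 percent of library pairs (0.85 ± 0.24, unadjusted p = 0.00122, edgeR adjusted p = 0.18). 0 members and 0.00612 percent of all genes were called by edgeR, 1468 genes had an unadjusted p under 0.05, limma-voom called 1 gene, and DESeq2 called 125, MMP14 among them (0.86, adjusted p = 0.037). The 2 comparisons share the C-SF libraries. TIMP3 was at -1.16 ± 0.58 (edgeR adjusted p = 0.57), MMP2 at 1.3 ± 0.93, ADAMTS1 at 0.51 ± 0.28, TIMP1 at 0.47 ± 0.40, TIMP2 at -0.75 ± 0.51 and MMP11 at -0.05 ± 0.33. With libraries mapped by their descriptions MMP2 (-0.37), ADAMTS1 (-0.16), TIMP1 (-0.76) and MMP11 (0.14) turned sign here, and MMP14 was at 0.20.

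By length no member was called. Between C-HF-short and C-HF-long 0 members and 0.00 percent of genes passed by edgeR (599 genes at an unadjusted p under 0.05, 2 called by DESeq2 and 0 by limma-voom), with MMP14 at -0.19 ± 0.26, ADAMTS1 at -0.24 ± 0.31, TIMP3 at 0.41 ± 0.65 and MMP2 at -0.53 ± 1.04. All 4 turned sign with libraries mapped by descriptions. TIMP1 was at -0.57 ± 0.45 and turned sign there too, TIMP2 was at 0.43 ± 0.56 and MMP11 at 0.37 ± 0.36. Along measured length, over 20 conceptuses, 0 members and 0.00 percent of 16769 genes passed (1878 at an unadjusted p under 0.05, 50 called by DESeq2 and 0 by limma-voom). TIMP3 had the steepest slope, 0.60 ± 0.38 log2 units per doubling of length (edgeR adjusted p = 0.53), and MMP14 was at 0.04 ± 0.18. The fit pools SF and HF recipients without a term for fertility class, so it does not separate length from class. With that term added the slopes were 0.19 for MMP14, 0.62 for MMP2 and 0.09 for ADAMTS1, and 0 members were called. Without the class term MMP11, TIMP1, TIMP2 and ADAMTS1 had slopes of 0.17, 0.21, -0.13 and -0.04. The slopes of MMP14, MMP2, MMP11 (to -0.15) and TIMP1 (to -0.12) turned sign with libraries mapped by descriptions. For MMP2 the slope was 0.11 ± 0.50 and also turned to -0.69 without C-HF-long replicate 8, at 17 cm, and C-HF-short replicate 6. Of the wider lists, C-SF against C-HF-long called MMP12, the macrophage elastase (2.83 ± 0.69, edgeR adjusted p = 0.016, means of 1.51 and 0.190 CPM, from 0 to 5.5 CPM in C-SF), and ADAMTS17 (-0.78 ± 0.23, edgeR adjusted p = 0.037). COL1A1 and COL1A2 were lower in C-SF (edgeR adjusted p = 0.040 and 0.037), at means under 5 CPM. With limma-voom MMP12 was at 1.77 (adjusted p = 0.19) and none of these 4 was called.

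**Figure D4:**
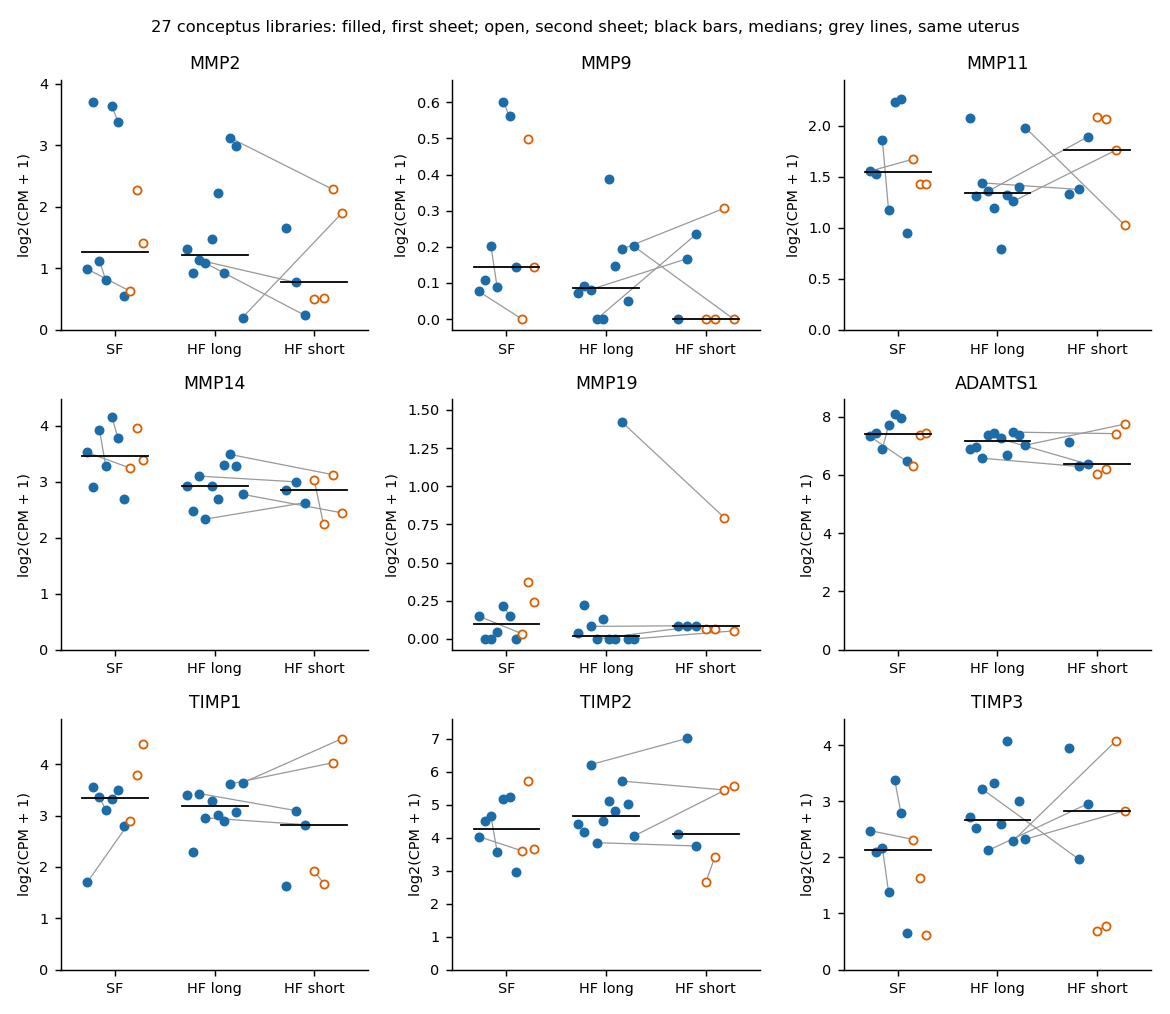
Levels of the 9 genes in 27 conceptuses as log2(CPM + 1) (vertical axis), by group; filled points are on the first and open points on the second sample sheet, black bars are medians and grey lines join conceptuses of 1 uterus. MMP14 has its highest points in C-SF, up to 16.84 CPM, and MMP19 is near 0 except in the joined pair C-HF-long replicate 8 (1.681 CPM) and C-HF-short replicate 6 (0.7339 CPM).

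Conceptuses of 1 uterus were nearer to each other than other conceptuses in all 9 genes by the median absolute log2 difference, which was 0.36 over the 8 pairs of 1 uterus and 0.93 over the 343 other pairs for MMP2. For TIMP1 it was 0.29 and 0.67, for MMP14 0.35 and 0.50 and for ADAMTS1 0.50 and 0.56. Pairs share libraries, and no test was made. The other pairs include SF against HF recipients, while conceptuses of 1 uterus share a fertility class. Uterus and class are therefore not separated in these medians. The 2 highest TIMP2 levels, 128.4 CPM in C-HF-short replicate 2 and 73.49 CPM in C-HF-long replicate 3, came from 1 uterus, and these libraries also held the highest endothelial marker sums, 70.72 and 45.53 CPM. KDR alone gave 61.93 and 34.04 CPM of them, while CDH5, which defines endothelium, was at most 0.154 CPM in any conceptus. The part of endothelial cells in the TIMP2 levels was not tested.

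MMP19 was read in the conceptus mainly in 1 uterus. C-HF-long replicate 8 held 47 reads and C-HF-short replicate 6 held 31 reads, and the other 25 conceptuses held 0 to 12. The 2 libraries had the highest leukocyte sums of their groups, 209.8 and 67.31 CPM. C-HF-long replicates 9 and 6 had leukocyte sums of 120 and 105.2 CPM, above that of C-HF-short replicate 6, with MMP19 at no more than 0.1654 CPM. In conceptuses that sum came mostly from ITGB2 and AIF1, and PTPRC, which marks all leukocytes, was at most 0.830 CPM in the HF groups, with CD163 at 0 in C-HF-short. The part of such cells in the MMP19 reads was not tested. MMP9 had 0 to 17 reads in C-SF, 0 to 8 in C-HF-long and 0 to 10 in C-HF-short.

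Across the 27 conceptuses, which share scaling, depth and in part a uterus, MMP2 had r = 0.73 with ADAMTS1 and 0.79 with the red blood cell sum, which is ALAS2 nearly alone since HBB and HBA were at or near 0. MMP2 did not follow the stromal sum there (r = 0.16), unlike in endometrium, a difference that was not tested. TIMP3 had r = 0.87 with the smooth muscle sum and was most like TPM2 (0.86), a tropomyosin. It was also like TAGLN (0.84), which is itself part of that sum. TIMP2 was most like NQO2 (0.93) and LGMN (0.91), the lysosomal protease legumain, MMP2 like SERPINA1 (0.90), the inhibitor alpha-1-antitrypsin, and MMP14 like FAM129B (0.82).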

How the data were processed

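The file analysed holds raw read counts per gene for 52 libraries, as the authors deposited it. The authors aligned reads with HISAT2, assembled them with StringTie, used edgeR and took build UMD3.1 as the genome, per the submitters' processing notes, which give no versions here. Library preparation used a stranded mRNA kit, per the labels' protocols. The use of strand in counting: not given in the sources used here. Rows with no gene name (1020) were dropped. Gene overlaps were read from RefSeq's table for another build, so no coordinates are printed.

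The members and the gene lists were chosen with earlier results of these data known. Groups come from the labels. Counts were scaled by TMM within each tissue, and genes with low counts (minimum 10 in a group's libraries, 15 in total) were left out. Tests used edgeR 4.0.16 quasi-likelihood (R 4.3.3) with Benjamini-Hochberg adjustment over all genes tested, in 1 fit of the 5 endometrium groups and 1 fit of the 3 conceptus groups with the sample sheet as a term. The sheet is read from the form of the descriptions. The slope on log2 length was fitted over 20 conceptuses, with the sheet as a term and no term for fertility class. SE is the log2 fold change divided by the square root of F. Ratios use log2(CPM + 1) and exact two-sided permutation tests in SciPy 1.17.1, adjusted over 12 tests. DESeq2 1.42.0, limma-voom (limma 3.58.1), other scaling, filters, single libraries left out, and other units or maps for the conceptuses were alternatives. The low-count filter of the conceptus fit was set by group after its results and those of a filter by the design had been seen, and the latter is given as an alternative chosen after seeing the data.

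All tested members are named in the 2 pregnancy comparisons, in P-SF against P-HF, between the conceptus groups and for the slope on length. For the interaction and the comparisons without pregnancy only some members are named. Of the other lists up to 4 called genes with the smallest p and at least 1 CPM were named by rule, and the 3 genes of highest Pearson r as most alike. List genes named without a call, and the marker genes, were chosen after their values were seen.

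On simulated counts with known changes, 39 percent of 2-fold and 99 percent of 4-fold changes were recovered for P-HF against NP-HF (19464 genes), and 81 and 100 percent for C-SF against C-HF-long (16322 genes). The simulation gave every gene the same spread, took libraries as independent and changed only genes above a read floor. In the real C-SF against C-HF-long fit the SE ran from 0.21 for MMP14 to 0.71 for MMP2. The percentages therefore do not give the power for single members. No pair of replicates differed by as little as sampling noise. Labels do not say how replicates were sampled beyond the animal, and p-values measure the spread between these libraries. Conceptuses of 1 uterus are not independent. In 4 HF recipients a long and a short conceptus come from 1 animal, and their deviations from the group means had r = 0.726, 0.446, 0.525 and -0.083 over 16330 genes. A fit with the recipient as a replicate block called 0 members, as without it.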

Additional observations from a re-analysis of the deposited data

Results flagged for a closer look

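Of 72 sets of libraries examined, 1 gene in 1 group each, 10 had 1 library set apart from the rest by a gap that chance gives in about 1 in 20 such sets. In endometrium, MMP2 was 112.7 CPM in NP-SF replicate 4 with the others at 177.2 to 203.2, and MMP9 was 0.7256 CPM (17 reads) in the same library with the others at 0 to 0.09668. ADAMTS1 was 139.5 CPM in NP-HF replicate 3 with the others at 218.2 to 248.3, and 450.0 CPM in NP-SF replicate 2 with the others at 232.1 to 268.8. TIMP2 was 1533 CPM in P-SF replicate 5 with the others at 665.0 to 866.6.

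In conceptuses, MMP19 was 1.681 CPM (47 reads) in C-HF-long replicate 8 with the others at 0 to 0.1654, and 0.7339 CPM (31 reads) in C-HF-short replicate 6, of the same uterus, with the others at 0.03693 to 0.06147. TIMP2 was 128.4 CPM in C-HF-short replicate 2 with the others at 5.253 to 46.76. TIMP3 was 15.86 CPM in C-HF-long replicate 7 with the others at 3.36 to 8.996. MMP9 was 0.3076 CPM (8 reads) in C-HF-long replicate 6 with the others at 0 to 0.1496, a gap of a few reads.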

How the results depend on the processing

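MMP2 stayed called between P-HF and NP-HF in 16 of 16 alternatives (-1.19 to -0.89, edgeR, DESeq2 or limma adjusted p from 4.8e-05 to 0.017) and MMP14 in 15 of 16 (-0.82 to -0.56). Members called there ran from 1 to 3 with single libraries left out: 1 without NP-HF replicate 2, and 3 without NP-HF replicate 5 or P-HF replicate 1, TIMP2 being the addition, as with DESeq2. C-SF against C-HF-long called 1 member (MMP14) with DESeq2, 1 with no sample sheet term and 1 with C-HF-long replicate 8 and C-HF-short replicate 6 both left out, an alternative chosen after seeing the data. C-SF against C-HF-short called 1 with DESeq2. ADAMTS17 in C-SF against C-HF-long turned to 0.0395 with libraries mapped by descriptions. Ratio tests passed ran from 0 to 4 with single libraries left out, 4 without P-SF replicate 5.

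In P-SF against NP-SF, the interaction, P-SF against P-HF, the comparisons without pregnancy, C-HF-short against C-HF-long and the slope, 0 members were called under any alternative run. Counts of all genes moved more: 425 (without P-SF replicate 5) to 1210 (DESeq2) for P-SF against NP-SF, 0 to 634 for P-SF against P-HF, 0 to 45 for the interaction, 0 to 2217 for C-SF against C-HF-long, 0 to 125 for C-SF against C-HF-short and 0 to 377 (no sheet term) for the slope. With the filter by the design C-SF against C-HF-long gave 0 members and 1406 genes.

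With the recipient as a replicate block, over HF conceptuses only, short minus long was -1.59 for MMP2 and 0.09 for MMP14 with the sheet term and -0.36 and -0.15 without it, with 0 members and 0 genes called by edgeR in each. No paired analysis between the endometrium groups was possible because the 5 groups are of different animals and the labels give them no replicate numbers. MMP9 in both tissues and MMP19 in the conceptus had too few reads to be tested.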
